A study of Mus musculus with 24 samples.

Results

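Paw skin and dorsal root ganglia (DRG) of IgG control mice were compared across all genes, to show which genes mark each tissue and which receptor, NF-κB and target genes each tissue holds when no agonist is given. The comparison used 6 of the 24 libraries of the series, 3 from hind paw punch biopsies and 3 from DRG of levels L3 to L5, chosen by their tissue and IgG labels, and all 22609 gene symbols of each file. The mice were male, of strain C57 and aged 8 to 12 weeks, and had received 10 µg of IgG into the hind paw 24 h before tissue was taken from the injected side. No uninjected tissue was used here, so the values describe IgG-injected tissue. In the rest of the series the same tissues and spinal cord were taken on day 1 or day 6 from mice given an agonist antibody to the lymphotoxin beta receptor (LTβR). By their labels, the day 6 mice were injected repeatedly, and day 6 was counted from the first injection. The series holds no IgG tissue of day 6. Whether each numbered sample is its own mouse is not stated, so the p-values reflect the spread of these samples, which may be technical.

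Hind paw skin is a layered epidermis over a dermis with hair follicles, sweat glands, vessels and nerve endings. In the DRG lie the bodies of the sensory neurons whose endings reach the skin, each wrapped in satellite glia, with Schwann cells along the axons. LTβR is a receptor of the tumour necrosis factor (TNF) family. It recruits TRAF adaptors and frees the kinase NIK, which acts with the kinase IKKα to turn the precursor encoded by Nfkb2 into a subunit that pairs with RelB. This non-canonical route runs beside the canonical one, in which subunits such as RelA are held by IκB proteins until the IκB is degraded.

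The paw libraries held 24228438 to 26164087 reads in genes and the DRG libraries 21562694 to 31030187, and between 16987 and 17565 genes had at least 1 count. Gene levels are counts-per-million (CPM) values of these reads after scaling between libraries. The 20 genes with the most counts took 14.4% to 20.4% of the counts in paw libraries and 8.06% to 8.95% in DRG libraries. Library 1 of both tissues stood apart. The summed level of 25 skeletal muscle genes was 314, 36200 and 32800 CPM in paw libraries 1, 2 and 3, against 71.6, 5760 and 6560 CPM in DRG libraries 1, 2 and 3. In DRG library 1, 31.5% of the reads placed at 1 position fell in no annotated gene, against 13.8% and 13.3% in DRG libraries 2 and 3 and 16.3% to 17.4% in paw libraries. Pearson's r of log2 CPM between libraries of 1 tissue was 0.944 to 0.988 in paw skin and 0.975 to 0.992 in DRG, and 0.485 to 0.54 between the tissues; these r are across genes, which are not independent replicates.

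Most genes differed between the tissues. Of 15724 genes tested, 5835 (37.1%) were higher in paw skin and 6277 (39.9%) were higher in DRG at an adjusted p under 0.05 in the edgeR quasi-likelihood test, 77.0% in all. Asked for a difference beyond 2-fold, the test called 3097 genes (19.7%) higher in paw skin and 3793 (24.1%) higher in DRG, 43.8% in all. The median absolute log2 fold change was 1.15 over all genes tested, and the median with its sign was -0.03. More than 16-fold apart were 906 genes higher in paw skin and 1424 higher in DRG. Each gene named below as higher in one tissue passed at an adjusted p under 0.05. Counts of list members given below stand beside these shares of all genes, 37.1% toward paw skin and 39.9% toward DRG. Without both libraries numbered 1, the counts at an adjusted p under 0.05 were 6079 higher in paw skin and 6342 higher in DRG.

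**Figure D1:**
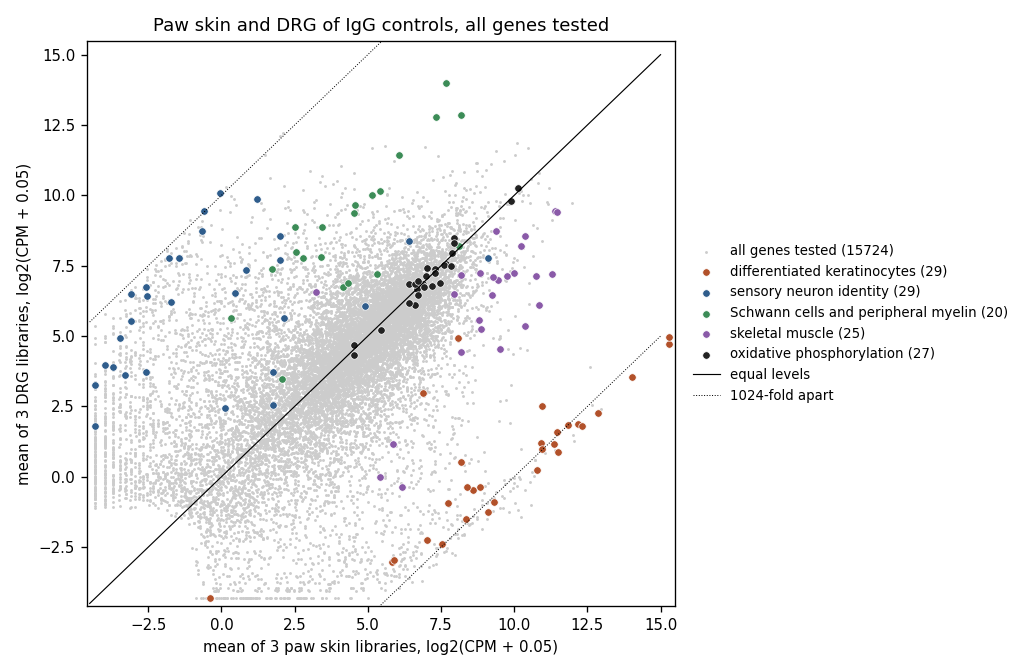
Mean level of each of the 15724 genes tested, as log2 of CPM plus 0.05, in the 3 paw skin libraries (x axis) and the 3 DRG libraries (y axis). Members of 5 gene lists are coloured; differentiated keratinocyte genes lie near the lower dotted line, where levels are 1024-fold apart, sensory neuron genes lie toward the upper one, and oxidative phosphorylation genes lie along the line of equal levels.

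The same comparison was made in libraries that the IgG comparison did not use, the 3 paw and 3 DRG libraries of agonist mice on each day. On day 1, 2768 of the 3097 genes called higher in IgG paw skin beyond 2-fold were called again, 89.4% of these and 83.1% of the 3332 called in the agonist libraries. Of the 3793 called higher in IgG DRG, 3507 were called again, 92.5% of these and 91.4% of 3839. On day 6, 2905 were called again in paw skin, 93.8% of the IgG calls and 79.0% of 3678, and 3498 in DRG, 92.2% of the IgG calls and 91.5% of 3823. Of these genes, 0 were called beyond 2-fold in the opposite direction on either day. At an adjusted p under 0.05 the agonist comparisons called 40.6% of the genes tested higher in paw skin on day 1 and 42.0% on day 6, and 41.5% and 40.4% higher in DRG. Beyond 2-fold they called 21.0% on day 1 and 23% on day 6 in paw skin, and 24.1% and 23.9% in DRG. At an adjusted p under 0.05 alone, 1 gene higher in IgG paw skin and 17 higher in IgG DRG were called in the opposite direction on day 6, and 0 on day 1.

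Epidermal genes were far higher in paw skin. All 29 tested genes of keratinocyte differentiation were higher in paw skin, with a median log2 fold change of 10.0 against a median of -0.03 over all genes, and they held between 10.6% and 17% of all counts in the paw libraries. Dsg1b, a desmoglein of the upper epidermis, had 387, 274 and 323 CPM in paw skin, against 0.366, 0.283 and 0.253 CPM in DRG, a log2 fold change of 10.09 ± 0.23 (SE, adjusted p = 2.89e-07). The plakophilin gene Pkp1, which encodes a desmosome plaque protein, had 5548, 3737 and 4572 CPM in paw skin, against 3.89, 3.47 and 3.57 CPM in DRG. Krtdap, a secreted product of differentiating keratinocytes, had 2169, 1419 and 1659 CPM in paw skin, against 1.19, 1.13 and 1.07 CPM in DRG. The tissues did not overlap in any of these genes; over all genes tested they did not overlap for 38.7% toward paw skin and 43.0% toward DRG.

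Most genes of the basal layer were also higher in paw skin. Of 12 tested genes of basal keratinocytes, 9 (75%) were higher in paw skin, against 37.1% of all genes tested, 2 were higher in DRG and 1 did not pass. Krt14 and Krt5 encode the keratin pair of the basal layer. Krt14 had 5172, 4539 and 3052 CPM in paw skin, against 2.97, 1.84 and 2.34 CPM in DRG, a log2 fold change of 10.80 ± 0.37 (adjusted p = 9.56e-07), and Krt5 had 3204, 2530 and 2331 CPM in paw skin, against 2.33, 1.45 and 1.93 CPM in DRG. Trp63, the transcription factor that maintains the stratified epithelium, had 392, 267 and 285 CPM in paw skin, against 1.33, 1.28 and 1.3 CPM in DRG. The 2 members higher in DRG were Dst, a cytoskeletal linker that also has a neural form, at 243, 468 and 428 CPM in paw skin, against 948, 844 and 823 CPM in DRG, and the integrin gene Itga3, at 99.9, 77.7 and 52.8 CPM in paw skin, against 130.0, 114 and 114 CPM in DRG. The call of Itga3 was lost without paw library 2 (adjusted p = 0.132) and without each of the DRG libraries (0.0946, 0.0669 and 0.0664 without libraries 1, 2 and 3).

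Promoters with a TATA motif are shown for 2 genes of keratinocyte differentiation because their values lie so far apart. The stretches are 120 bases upstream of the transcription start of Krt10, a keratin of the suprabasal layers, and Lor, which encodes the cornified envelope protein loricrin, both chosen after their values were seen. They come from RefSeq on build GRCm38.p6, on the minus strand, with each match to TATAAA on either strand in capitals. Of all 26794 promoters in that table, 13% hold TATAAA in the 250 bases before the start.
Krt10, chr11:99389365-99389484: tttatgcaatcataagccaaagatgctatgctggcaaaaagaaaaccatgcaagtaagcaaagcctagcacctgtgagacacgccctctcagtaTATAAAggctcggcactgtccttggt
Lor, chr3:92083143-92083262: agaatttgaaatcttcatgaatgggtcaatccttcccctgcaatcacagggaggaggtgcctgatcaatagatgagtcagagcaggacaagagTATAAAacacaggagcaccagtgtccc
Krt10 had 53843, 30582 and 36395 CPM in paw skin, against 35.4, 30.5 and 27.7 CPM in DRG, and Lor had 2698, 2266 and 3487 CPM in paw skin, against 3.43, 2.62 and 2.87 CPM in DRG. The groups did not overlap for either gene, and the match is a description of the letters only. The promoters of Krt14, Calca and Scn10a hold no TATAAA in that window.

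Genes listed as markers of stressed keratinocytes were also higher in IgG paw skin. Whether the epidermis was stressed was not tested, because the comparison is with DRG, where keratinocyte genes in general were low. Of 19 tested, 15 (78.9%) were higher in paw skin, against 37.1% of all genes tested, 0 were higher in DRG and 4 did not pass. Krt16 and Krt6a encode keratins induced in wounded or inflamed epidermis. Krt16 had 1843, 1412 and 319.9 CPM in paw skin, against 0.411, 0.354 and 0.19 CPM in DRG, and Krt6a, which has a close copy in Krt6b that can share its reads, had 1982, 2080 and 489 CPM in paw skin, against 0.594, 0.425 and 0.316 CPM in DRG. Paw library 3 was the lowest of the 3 paw libraries in both. The summed level of the list was 8140, 7630 and 2430 CPM in paw libraries 1, 2 and 3, against 157, 108 and 208 CPM in the DRG libraries. Il1f6, the older symbol of an interleukin-36 gene, had 126, 70.7 and 74.2 CPM in paw skin, against 0.0457, 0 and 0.0316 CPM in DRG; with 2 counts in all DRG libraries together the ratio was 3690-fold (95% interval 1020 to 30500), and the interval covers counting error only.

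Genes of skin appendages were mostly higher in paw skin. Of sweat glands and simple epithelium, all 12 tested genes were higher in paw skin. Aqp5, the water channel of secretory gland cells, had 269, 147 and 251 CPM in paw skin, against 0.183, 0.177 and 0.158 CPM in DRG, and Atp6v1b1, a proton pump subunit, had 173, 109.9 and 162 CPM in paw skin, against 0.0914, 0.0354 and 0.0632 CPM in DRG. Of 14 tested hair follicle genes, 10 (71.4%) were higher in paw skin, against 37.1% of all genes tested, and 2 in DRG. Foxn1, a transcription factor of hair and nail epithelium, had 31.5, 25.7 and 24.5 CPM in paw skin, against 0, 0.0354 and 0.0316 CPM in DRG, with 2 counts in all DRG libraries together and a ratio of 1110-fold (95% interval 308 to 9200). The 2 follicle genes higher in DRG were Shh, which encodes the signal sonic hedgehog, at 0.0805, 0.285 and 0.156 CPM in paw skin, against 19.3, 18 and 21.1 CPM in DRG, and Lgr5, a stem cell receptor, at 5.67, 7.79 and 6.79 CPM in paw skin, against 15.7, 17 and 15.7 CPM in DRG. Without both libraries numbered 1, 5 follicle genes were higher in paw skin and 2 in DRG.

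Of 24 genes of fibroblasts and matrix, 17 (70.8%) were higher in paw skin, against 37.1% of all genes tested. Of the rest, 2 were higher in DRG and 5 did not pass, and the median log2 fold change of the list was 1.13. Dpt, which encodes the dermal matrix protein dermatopontin, had 168, 140.3 and 122 CPM in paw skin, against 2.29, 1.95 and 2.31 CPM in DRG. Eln, the gene of elastin, had 189.7, 294 and 253 CPM in paw skin, against 16.1, 12.4 and 18.1 CPM in DRG. The 2 members higher in DRG were Mfap5, a microfibril gene, at 55.8, 70.1 and 44.1 CPM in paw skin, against 164, 189 and 171 CPM in DRG, and the collagen gene Col14a1, at 18.6, 29.6 and 25.1 CPM in paw skin, against 62.2, 88.3 and 72.7 CPM in DRG. All 10 tested adipocyte genes were higher in paw skin, against 37.1% of all genes tested. Among them was Cfd, the adipokine adipsin, at 120.2, 182 and 149 CPM in paw skin, against 9.33, 3.26 and 8.02 CPM in DRG. Of 12 mural cell genes, 7 (58.3%) were higher in paw skin, against 37.1% of all genes tested, and 0 in DRG. Their summed level was 754, 2230 and 1920 CPM in paw libraries 1, 2 and 3, against 350, 448 and 410 CPM in the DRG libraries. Acta2, smooth muscle actin, had 167, 338 and 299 CPM in paw skin, against 29.6, 26.9 and 27.9 CPM in DRG.

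**Figure D2:**
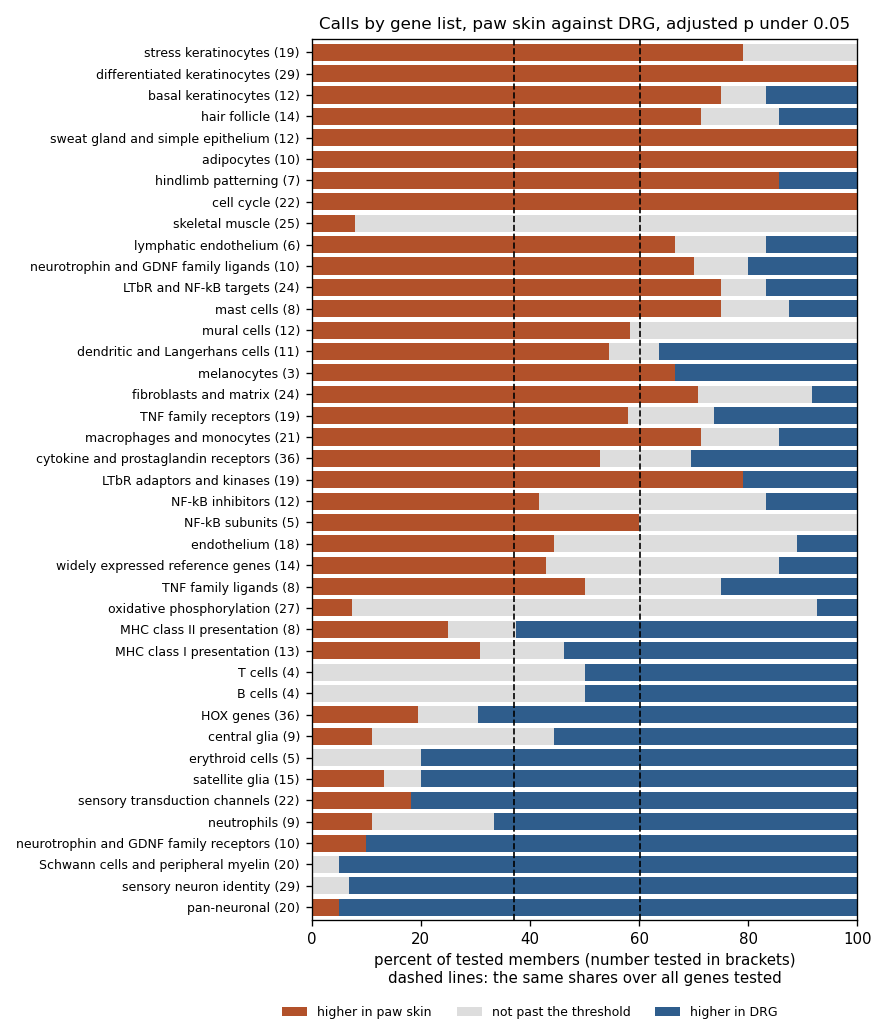
Share of the tested members of each gene list that were higher in paw skin, not past the threshold or higher in DRG, at an adjusted p under 0.05. Lists run from the highest median log2 fold change at the top to the lowest at the bottom; dashed lines mark the shares over all genes tested, 37.1% higher in paw skin on the left and 39.9% higher in DRG on the right.

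In DRG the neuronal genes stood out. Of 20 genes shared by neurons in general, 19 were higher in DRG and 1, Mtap2, was higher in paw skin, with a median log2 fold change of -8.68. Nefm and Nefh encode neurofilaments of large axons. Nefm had 3.86, 3.96 and 3.94 CPM in paw skin, against 4407, 4176 and 4546 CPM in DRG, and Nefh had 2.82, 2.61 and 2.81 CPM in paw skin, against 2771, 2702 and 2801 CPM in DRG. Syt1, the calcium sensor of synaptic vesicles, had 0.201, 0.204 and 0.234 CPM in paw skin, against 190.2, 178 and 177 CPM in DRG, and Snap25, a vesicle fusion protein gene, had 1.01, 1.14 and 1.05 CPM in paw skin, against 1250, 1189 and 1344 CPM in DRG. Mtap2, the microtubule-associated protein gene, had 227, 145 and 185 CPM in paw skin, against 124, 115 and 125 CPM in DRG (log2 fold change 0.61 ± 0.16, adjusted p = 0.012, and 0.0517 without DRG library 2).

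Of 29 tested genes that set sensory neurons apart, 27 were higher in DRG, 0 were higher in paw skin and 2 did not pass. Their median log2 fold change was -8.66, or -7.73 with the 2 genes at 0 counts in paw skin set to their lower bound. Calca, which encodes the peptide CGRP of nociceptors, had 0.845, 0.856 and 1.05 CPM in paw skin, against 1168, 1014 and 1047 CPM in DRG, a log2 fold change of -10.19 ± 0.18 (adjusted p = 1.67e-07). Scn10a and Scn9a encode sodium channels of nociceptors. Scn10a had 0.684, 0.571 and 0.586 CPM in paw skin, against 787, 687 and 631 CPM in DRG, and Scn9a had 0.282, 0.245 and 0.195 CPM in paw skin, against 226, 217 and 206 CPM in DRG. Trpa1, the irritant channel gene, had 0, 0.0816 and 0 CPM in paw skin, against 57.1, 48.6 and 45.3 CPM in DRG, with 2 counts in all paw libraries together and a ratio of 1860-fold (95% interval 514 to 15400), DRG over paw. Mrgpra3, an itch receptor gene chosen after its values were seen, had 0 counts in each paw library, against 10.5, 9.18 and 8.72 CPM in DRG, at least 78.9-fold higher in DRG when 3 counts per paw library are taken as the floor.

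Glial genes of the ganglion and nerve were also mostly higher in DRG. Of 20 Schwann cell and myelin genes, 19 were higher in DRG and 1 did not pass, with a median log2 fold change of -4.93. Mbp, myelin basic protein, had 96.2, 213 and 173 CPM in paw skin, against 6765, 8113 and 6433 CPM in DRG, and Pmp22, the peripheral myelin protein, had 178, 375 and 311 CPM in paw skin, against 6925, 8322 and 6828 CPM in DRG. Paw library 1 was the lowest of the paw libraries for both. Of 15 satellite glia genes, 12 were higher in DRG and 2 in paw skin. Fabp7, a fatty acid binding protein of satellite glia, had 0.201, 0.326 and 0.351 CPM in paw skin, against 189.9, 171 and 179 CPM in DRG, whereas the gap junction gene Gja1, also abundant in epidermis, had 894, 632 and 679 CPM in paw skin, against 33.2, 30.4 and 33 CPM in DRG (log2 fold change 4.51 ± 0.17).

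The level of each tissue's own genes in the other tissue was low for most keratinocyte and neuronal genes and less so for glial genes. For the 28 keratinocyte differentiation genes that averaged 50 CPM or more in paw skin, the DRG mean was a median of 0.0977% of the paw mean, with quartiles of 0.0743% and 0.164% and a highest value of 11.4%. For the 19 pan-neuronal genes that averaged 50 CPM or more in DRG, the paw mean was a median of 0.2% of the DRG mean, with quartiles of 0.123% and 0.639% and a highest value of 153% for Mtap2. For 19 Schwann cell genes the paw mean was a median of 3.13% of the DRG mean, with quartiles of 2.29% and 4.33% and a highest value of 94.5% for Fa2h. For 18 sensory neuron genes it was a median of 0.295%, with quartiles of 0.118% and 1.77% and a highest value of 251% for Pvalb, which muscle also expresses. For 11 satellite glia genes it was a median of 8.32%, with quartiles of 2.37% and 40.3% and a highest value of 184% for Erbb3, whose call toward paw skin was lost without paw library 1 (adjusted p = 0.0632) or DRG library 1 (0.0529). These shares, and the genes named with them, were chosen after the values were seen, and the source of the low counts was not tested. In bulk tissue, fewer cells of a type and less RNA per cell cannot be told apart.

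Skeletal muscle genes were high in some libraries of both tissues. With all libraries, 2 of 25 were higher in paw skin (Tnnt1 and Tnni1), 0 were higher in DRG and 23 did not pass. Without both libraries numbered 1, 22 were higher in paw skin, 1 was higher in DRG and 2 did not pass. Tnnt1, a slow fibre troponin gene, had 0.483, 108 and 107 CPM in paw skin, against 0.366, 0.85 and 0.948 CPM in DRG. The fast myosin gene Myh4 had 1.05, 1150 and 863 CPM in paw skin, against 0.732, 863 and 421 CPM in DRG. Within each tissue it had the largest spread of log2 CPM among genes that averaged 50 CPM or more there. The tissues overlapped for all 25 genes of the list. The call of Tnnt1 was lost without any one library other than paw library 1 (adjusted p between 0.0534 and 0.0729), and that of Tnni1 with the replicate number as a block (adjusted p = 0.155) or without those libraries (0.102 to 0.127). With the block, Myh4 was called higher in paw skin (log2 fold change 0.68, adjusted p = 0.0164).

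**Figure D3:**
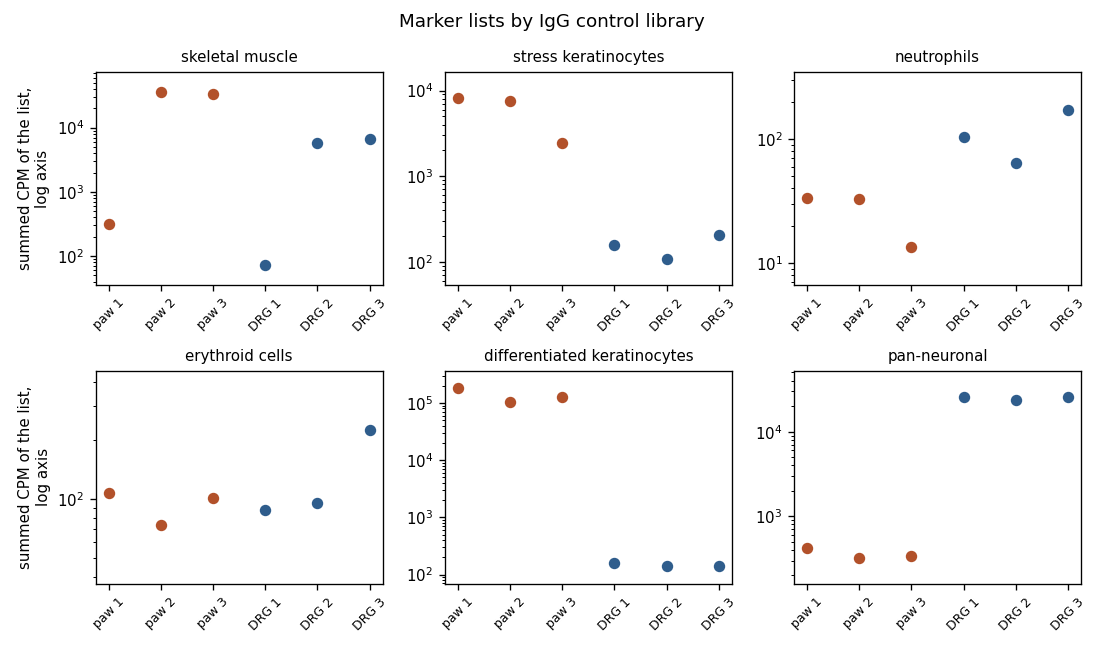
Summed CPM (log axis) of 6 marker lists in each of the 3 paw skin and 3 DRG libraries. Skeletal muscle was low in library 1 of both tissues, stress keratinocyte genes were lower in paw library 3 than in paw libraries 1 and 2, and erythroid genes were highest in DRG library 3.

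Blood and immune genes differed by lineage. Of 9 neutrophil genes, 6 (66.7%) were higher in DRG, against 39.9% of all genes tested, 1 was higher in paw skin and 2 did not pass. Ngp and Camp encode granule proteins of maturing neutrophils. Ngp had 0.0805, 0.122 and 0.039 CPM in paw skin, against 42, 26.7 and 70.3 CPM in DRG, and Camp had 0.0805, 0.163 and 0.039 CPM in paw skin, against 15.5, 8.96 and 22.9 CPM in DRG. Mpo, the myeloperoxidase gene of early granulocytes, had 0, 0.0408 and 0 CPM in paw skin, against 3.57, 2.8 and 18.1 CPM in DRG, a call lost with limma (adjusted p = 0.0619). Of 5 tested erythroid genes, 4 (80%) were higher in DRG, against 39.9% of all genes tested, and 0 in paw skin. Slc4a1, the red cell anion exchanger, had 0.443, 0.326 and 0.351 CPM in paw skin, against 14.1, 10.7 and 26.8 CPM in DRG. DRG library 3 was the highest library for Ngp, Camp, Mpo and Slc4a1. The neutrophil gene higher in paw skin was Cxcr2, a chemokine receptor gene, at 17.6, 11.1 and 9.8 CPM in paw skin, against 2.42, 1.49 and 2.78 CPM in DRG.

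Of 21 macrophage and monocyte genes, 15 (71.4%) were higher in paw skin, against 37.1% of all genes tested. Of the rest, 3 were higher in DRG and 3 did not pass, and the median log2 fold change of the list was 0.70. Lyve1 and Folr2 mark perivascular macrophages, and Lyve1 lymphatic vessels too. Lyve1 had 61.7, 54 and 39.8 CPM in paw skin, against 5.9, 7.69 and 6.1 CPM in DRG, and Folr2 had 10.5, 11.2 and 9.1 CPM in paw skin, against 1.05, 1.91 and 1.42 CPM in DRG. Cx3cr1, the fractalkine receptor gene, was higher in DRG, with 0.764, 1.55 and 1.83 CPM in paw skin, against 9.6, 9.71 and 9.48 CPM in DRG. Cd207, the Langerhans cell lectin, had 5.11, 4.61 and 7.65 CPM in paw skin, against 0, 0.177 and 0.0316 CPM in DRG, and Flt3, a receptor of dendritic cell precursors, had 1.41, 1.1 and 1.13 CPM in paw skin, against 22.3, 24.4 and 27 CPM in DRG. Of 8 tested mast cell genes, 6 (75%) were higher in paw skin, against 37.1% of all genes tested. Among them was the protease gene Mcpt4 at 14.8, 8.4 and 7.92 CPM in paw skin, against 1.97, 2.76 and 1.93 CPM in DRG. Kit was higher in DRG at 54.4, 35.4 and 48.4 CPM in paw skin, against 85.8, 77.7 and 92.3 CPM in DRG. Which cells of the DRG hold Flt3 and Kit was not tested. In T and B cell lists 4 genes each were tested. In each, 2 (50%) were higher in DRG, against 39.9% of all genes tested, and 0 in paw skin.

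Genes of antigen presentation were called in both directions. Of 13 tested class I genes, 7 (53.8%) were higher in DRG, against 39.9% of all genes tested, and 4 in paw skin. B2m, the class I light chain, had 136, 146 and 155 CPM in paw skin, against 371, 321 and 324 CPM in DRG. Nlrc5, a class I transactivator, had 27.2, 14.8 and 18.1 CPM in paw skin, against 8.87, 4.36 and 5.81 CPM in DRG. Of 8 class II genes, 5 (62.5%) were higher in DRG and 2 in paw skin. H2-DMa, a peptide exchange chain, had 4.51, 5.99 and 5.97 CPM in paw skin, against 38.6, 40.6 and 32.3 CPM in DRG, while the class II chain gene H2-Ab1 had 75.9, 67.6 and 79.7 CPM in paw skin, against 58.7, 57.2 and 67.8 CPM in DRG, a log2 fold change of 0.28 ± 0.10 (adjusted p = 0.0424). H2-Ab1 was not called without paw library 3 (adjusted p = 0.113) or without DRG library 1 or 2 (0.146 and 0.158). Without both libraries numbered 1 the class II calls were 0 in paw skin and 4 in DRG.

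All 22 cell cycle genes were higher in paw skin, with a median log2 fold change of 3.40. Cdk1, the kinase that drives mitosis, had 45.2, 34.5 and 27.2 CPM in paw skin, against 1.46, 1.03 and 1.99 CPM in DRG, and Ccna2, a cyclin of S phase and mitosis, had 49.8, 41.8 and 35.6 CPM in paw skin, against 3.34, 3.76 and 4.74 CPM in DRG. Of 27 genes of oxidative phosphorylation, 23 did not pass, 2 were higher in paw skin and 2 in DRG, with log2 fold changes between -0.54 and 0.59. Among 14 widely expressed genes often used as references, 6 (42.9%) were higher in paw skin, near the 37.1% of all genes tested, and 2 in DRG. Rplp0 is a ribosomal protein gene with processed copies in the genome that can take up reads. It had 861, 769 and 898 CPM in paw skin, against 119.7, 130.1 and 124 CPM in DRG.

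HOX genes, which record position along the body axis, were called in both directions. Of 36 tested HOX genes, 25 were higher in DRG, 7 were higher in paw skin and 4 did not pass, with a median log2 fold change of -1.33. Hoxd1 had 0.0402, 0.0408 and 0.039 CPM in paw skin, against 18.1, 15.4 and 16.8 CPM in DRG, and Hoxb5 had 0.845, 0.938 and 0.586 CPM in paw skin, against 18.7, 18.7 and 16.6 CPM in DRG. The 7 higher in paw skin were Hoxa9, Hoxa11, Hoxa13, Hoxc11, Hoxc12, Hoxc13 and Hoxd13, members of the paralogue groups that pattern the limb and the tail end of the body; apart from Hoxc12 and Hoxc13 they were chosen after their values were seen. Hoxc13 had 8.73, 6.48 and 8.24 CPM in paw skin, against 0, 0 and 0.0316 CPM in DRG, a ratio of 640.0-fold (95% interval 114 to 25300) with 1 count in all DRG libraries together. Hoxd13 had 6.76, 10.9 and 14.6 CPM in paw skin and 0 counts in each DRG library, at least 95.5-fold higher in paw skin with 3 counts per DRG library as the floor. Hoxd10 and Hoxd11, neighbours of Hoxd13 in the cluster and also chosen after their values were seen, were higher in DRG. Hoxd10 had 1.73, 3.22 and 3.32 CPM in paw skin, against 12.2, 6.98 and 16.6 CPM in DRG, and Hoxd11 had 0.0805, 0.367 and 0.664 CPM in paw skin, against 2.1, 1.52 and 3.13 CPM in DRG. En1, a homeobox gene of the ventral limb, had 19.8, 13.7 and 14 CPM in paw skin, against 0.137, 0.0354 and 0.0632 CPM in DRG, and Tbx4, a hindlimb identity gene, had 6.16, 7.79 and 8.98 CPM in paw skin, against 0.274, 0.496 and 0.158 CPM in DRG.

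Ltbr, the gene of the receptor that the agonist acts on in the other groups, was present in both tissues. It had 48.3, 55.4 and 39.8 CPM in paw skin, against 31.4, 33.7 and 34.8 CPM in DRG, a log2 fold change of 0.52 ± 0.13 (SE, adjusted p = 0.0102). The groups did not overlap, and the difference was not called beyond 2-fold. The genes of its ligands were near the limit of detection. Lta, which encodes lymphotoxin alpha, had 0.161, 0.367 and 0.195 CPM in paw skin, against 0.137, 0.142 and 0.158 CPM in DRG, and Tnfsf14, which encodes LIGHT, had 0.362, 0.245 and 0.156 CPM in paw skin, against 0.183, 0.283 and 0.569 CPM in DRG; both were too low to test. Ltb, which encodes the membrane partner of lymphotoxin alpha, had 0.241, 0.816 and 0.195 CPM in paw skin, against 0.686, 0.496 and 0.79 CPM in DRG and did not pass (log2 fold change -0.66 ± 0.57, adjusted p = 0.321); without paw library 2, its highest paw library, it was lower in paw skin (log2 fold change -1.51, adjusted p = 0.02).

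Of 15 TNF family ligand genes, 8 were tested. Of these, 4 (50%) were higher in paw skin, against 37.1% of all genes tested, 2 were higher in DRG and 2 did not pass. Besides Tnf, those higher in paw skin were Tnfsf8, Tnfsf9 and Tnfsf10, with log2 fold changes of 3.16 ± 0.43, 0.94 ± 0.32 and 0.89 ± 0.23; Tnfsf9 was not called with the replicate number as a block (adjusted p = 0.056) nor without any one library other than paw library 3 and DRG library 2 (0.0645 to 0.124). Tnf itself had 1.45, 1.79 and 0.859 CPM in paw skin, against 0.183, 0.177 and 0.158 CPM in DRG, a log2 fold change of 2.96 ± 0.40 (adjusted p = 0.000447). Tnfsf12, which encodes the ligand TWEAK, was higher in DRG, with 4.59, 9.22 and 7.07 CPM in paw skin, against 16, 16.1 and 16.2 CPM in DRG. Its receptor gene Tnfrsf12a went the other way, with 46.5, 50.2 and 48.1 CPM in paw skin, against 8.23, 9.28 and 8.02 CPM in DRG, 5.66-fold higher in paw skin.

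Of 21 receptor genes of the family, 19 were tested. Of these, 11 (57.9%) were higher in paw skin, against 37.1% of all genes tested, 5 were higher in DRG and 3 did not pass. Tnfrsf1a, the broadly expressed TNF receptor, had 239, 201 and 167 CPM in paw skin, against 42.8, 45.2 and 45.8 CPM in DRG, a log2 fold change of 2.18 ± 0.14 (adjusted p = 1.33e-05). Edar, the receptor that patterns hair and sweat glands, had 2.74, 2.81 and 2.89 CPM in paw skin, against 0.549, 0.496 and 0.316 CPM in DRG, and Tnfrsf18, which encodes GITR, had 13.2, 6.44 and 4.57 CPM in paw skin, against 0.0914, 0.0709 and 0.0948 CPM in DRG. The tissues did not overlap for these 3 genes, as for 38.7% of all genes toward paw skin. The others higher in paw skin were Tnfrsf1b, Cd40, Tnfrsf19, Tnfrsf10b, Fas and Eda2r, and the largest of these was Eda2r, a receptor of ectodysplasin, with 4.91, 42.7 and 32.9 CPM in paw skin, against 0.457, 0.921 and 0.505 CPM in DRG. Paw library 1, the lowest for Eda2r, was also the lowest in skeletal muscle genes, whose part in the result was not tested. Tnfrsf1b was not called without paw library 2 (adjusted p = 0.0888) or without any one DRG library (0.0985 to 0.136). On the DRG side, Ngfr, the low-affinity neurotrophin receptor gene, had 4.47, 5.06 and 4.96 CPM in paw skin, against 909, 865 and 894 CPM in DRG, 184-fold higher in DRG. Tnfrsf21, the death receptor gene of developing neurons, had 47.4, 44.9 and 38.8 CPM in paw skin, against 254, 232 and 239 CPM in DRG. Tnfrsf25, a death receptor gene of lymphocytes, had 0.764, 1.3 and 1.05 CPM in paw skin, against 6.04, 8.93 and 5.21 CPM in DRG, and Tnfrsf13c and Tnfrsf11a were also higher in DRG, Tnfrsf11a not without DRG library 3 (adjusted p = 0.0566). Tnfrsf14, the LIGHT receptor gene HVEM, did not pass, with 1.05, 0.897 and 0.703 CPM in paw skin, against 1.01, 1.03 and 1.83 CPM in DRG.

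Adaptors and kinases of the pathway were present in both tissues. All 19 were tested, and 15 (78.9%) were higher in paw skin, against 37.1% of all genes tested. The other 4 (21.1%) were higher in DRG, against 39.9%. Beyond 2-fold, 5 of the 19 were higher in paw skin and 1 in DRG, where the shares of all genes tested were 19.7% and 24.1%. The median log2 fold change of the list was 0.60. The non-canonical kinase genes were higher in paw skin, and neither was called beyond 2-fold. Map3k14, which encodes NIK, had 18.4, 13.9 and 15.7 CPM in paw skin, against 11.9, 11.1 and 10.8 CPM in DRG (log2 fold change 0.51 ± 0.14, adjusted p = 0.0133, and 0.0525 and 0.0546 without DRG libraries 2 and 3). Chuk, which encodes IKKα, had 63.4, 60.1 and 51.4 CPM in paw skin, against 35.3, 38.7 and 37.8 CPM in DRG (log2 fold change 0.64 ± 0.10, adjusted p = 0.00114). Traf2 and Birc2 encode an adaptor and a ubiquitin ligase that keep NIK low. Traf2 had 25.9, 24.3 and 24.4 CPM in paw skin, against 16.9, 18.6 and 17.4 CPM in DRG, and Birc2 had 42.7, 49.1 and 48 CPM in paw skin, against 33.3, 35.1 and 34.8 CPM in DRG. Traf3, the adaptor that binds NIK directly, was slightly higher in DRG, with 37.9, 43.5 and 40.2 CPM in paw skin, against 51.1, 47.5 and 45.9 CPM in DRG (log2 fold change -0.25 ± 0.09, adjusted p = 0.0414); that call was lost with the replicate number as a block (adjusted p = 0.0917) and without any one of the 6 libraries (0.0578 to 0.128). The largest log2 fold change of the list was that of Traf6, the adaptor of interleukin-1 and Toll-like receptors, with 176, 129 and 156 CPM in paw skin, against 18.6, 18.1 and 16.5 CPM in DRG, 8.68-fold higher in paw skin. Ikbke, an IKK-related kinase gene, had 24.5, 20.2 and 25 CPM in paw skin, against 2.29, 3.79 and 2.94 CPM in DRG, and Birc3, a ubiquitin ligase gene that NF-κB induces, had 25.6, 20.5 and 21.2 CPM in paw skin, against 6.22, 5.6 and 7.9 CPM in DRG. Traf1, an inducible adaptor gene, was higher in DRG, with 1.33, 2.04 and 2.77 CPM in paw skin, against 7, 8.47 and 6.44 CPM in DRG (log2 fold change -1.83 ± 0.29), as were Tbk1 and Otud7b by less than 2-fold.

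Of the 5 subunit genes of NF-κB, 3 (60%) were higher in paw skin, against 37.1% of all genes tested, and 2 did not pass. Rel, which encodes c-Rel, had 13.5, 9.26 and 11.6 CPM in paw skin, against 0.549, 0.283 and 0.253 CPM in DRG, a log2 fold change of 5.01 ± 0.34 (adjusted p = 1.61e-05). Nfkb1 had 98.8, 86.7 and 81 CPM in paw skin, against 48.2, 58.8 and 57.1 CPM in DRG, and Nfkb2 had 27.2, 29.2 and 23.9 CPM in paw skin, against 20.9, 20.7 and 15.7 CPM in DRG, log2 fold changes of 0.70 ± 0.12 and 0.49 ± 0.15 (adjusted p = 0.00126 and 0.0195). Without DRG library 3, the lowest for Nfkb2, the adjusted p of Nfkb2 was 0.0563. The 2 that did not pass were Rela, with 74, 74.3 and 70.1 CPM in paw skin, against 69.6, 66.3 and 66.2 CPM in DRG (log2 fold change 0.11 ± 0.07, adjusted p = 0.18), and Relb, with 13.2, 15.5 and 14.6 CPM in paw skin, against 14.8, 12.9 and 10.9 CPM in DRG (log2 fold change 0.16 ± 0.15, adjusted p = 0.342). The tissues overlapped for Relb only; the other 4 did not overlap toward paw skin, against 38.7% of all genes.

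Inhibitor genes were called in both directions. Of 12, 5 were higher in paw skin, 2 were higher in DRG and 5 did not pass. The share higher in paw skin, 41.7%, was near the 37.1% over all genes tested. Nfkbia, the IκBα gene and a rapid NF-κB target, had 113, 124 and 128 CPM in paw skin, against 34.7, 41.7 and 70.2 CPM in DRG. Nfkbiz, a nuclear IκB of keratinocytes, had 105, 96.2 and 88.4 CPM in paw skin, against 6.9, 5.81 and 5.91 CPM in DRG, 15.5-fold higher in paw skin. Zc3h12a, an RNase gene that degrades cytokine mRNAs, had 51.3, 35.1 and 35.7 CPM in paw skin, against 5.21, 5.49 and 5.21 CPM in DRG. Nfkbie, the IκBε gene, and Tnip1, a partner of the deubiquitinase A20, were higher in DRG. Nfkbie had 3.06, 4.77 and 3.86 CPM in paw skin, against 10.2, 9.25 and 10.1 CPM in DRG, and Tnip1 had 39.4, 36.4 and 36.6 CPM in paw skin, against 61.6, 63.1 and 66.7 CPM in DRG. Tnfaip3, which encodes A20, was 1.69-fold higher in paw skin, with 10.3, 16.3 and 12.8 CPM in paw skin, against 8.37, 7.48 and 7.49 CPM in DRG. Of the 5 that did not pass, Bcl3, a nuclear IκB that binds the product of Nfkb2, varied most in paw skin, with 35.7, 18.9 and 6.52 CPM in paw skin, against 10.2, 7.97 and 8.06 CPM in DRG (log2 fold change 1.22 ± 0.57, adjusted p = 0.0943); without paw library 3 it was higher in paw skin (log2 fold change 1.65, adjusted p = 0.00381). The others were Nfkbib, Nfkbid, Cyld and Nfkbil1.

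The promoters below are shown because each belongs to a gene of this pathway that was higher in paw skin and holds a match to the κB consensus motif, the element that NF-κB subunits bind. They are 120-base stretches upstream of the transcription start, from RefSeq on build GRCm38.p6, with matches on either strand in capitals; matches that overlap run together. Rel and Nfkbia lie on the minus strand, Nfkb2 and Cxcl1 on the plus strand. Of all 26794 promoters in the table, 7.06% hold a match in the 250 bases before the start.
Rel, chr11:23770996-23771115: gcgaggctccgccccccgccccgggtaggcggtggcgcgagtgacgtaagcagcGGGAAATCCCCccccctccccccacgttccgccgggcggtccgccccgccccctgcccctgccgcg
Nfkb2, chr19:46304617-46304736: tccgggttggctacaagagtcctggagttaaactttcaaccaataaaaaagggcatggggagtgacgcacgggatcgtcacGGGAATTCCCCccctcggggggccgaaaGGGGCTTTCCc
Nfkbia, chr12:55492648-55492767: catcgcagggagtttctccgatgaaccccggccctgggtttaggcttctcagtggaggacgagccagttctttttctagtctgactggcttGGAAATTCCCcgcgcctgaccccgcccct
Cxcl1, chr5:90891120-90891239: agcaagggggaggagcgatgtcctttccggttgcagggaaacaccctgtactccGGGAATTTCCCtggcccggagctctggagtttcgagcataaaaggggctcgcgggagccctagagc
The 4 genes were picked because they hold a match, after their values were seen. Ltbr, Tnfrsf1a, Icam1 and Sele, also higher in paw skin, hold no match in the same 250 bases. The matches describe the letters of these windows and are not binding sites that were measured. A comparison of motif shares between the genes higher in each tissue was void, because 77.9% of the genes tested had a promoter in the table, under the 80% set as the least.

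Target genes of LTβR and NF-κB were mostly higher in paw skin. Of the 36 on the list, 24 were tested, and 18 (75%) were higher in paw skin, against 37.1% of all genes tested. Of the rest, 4 were higher in DRG and 2 did not pass. The median log2 fold change was 2.09, and 3.23 without paw library 3, while without 1 DRG library it was 2.86 to 2.96. Each fit without a library filtered genes anew (15985 genes tested without paw library 3, against 15724), so the list members in these medians can differ. The lymphoid organ chemokine genes Ccl19, Ccl21a, Ccl21b and Ccl21c had 0 counts in all 6 libraries; the Ccl21 genes have near-identical copies whose reads are placed at several positions and were not counted, so the 0 does not show absence. Cxcl12, a constitutive chemokine of stroma, had 227, 286 and 232 CPM in paw skin, against 82.6, 82.3 and 82.2 CPM in DRG. Cxcl16, a membrane-bound chemokine gene, had 32.8, 24.1 and 24.8 CPM in paw skin, against 6.86, 7.3 and 7.77 CPM in DRG.

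The adhesion molecules of vessels differed. Sele, E-selectin of endothelium, had 17.3, 16.5 and 22.6 CPM in paw skin, against 0.0457, 0.0709 and 0.126 CPM in DRG, a log2 fold change of 7.71 ± 0.32 (adjusted p = 1.96e-06). Selp, P-selectin, had 24.3, 26 and 19.3 CPM in paw skin, against 1.55, 1.03 and 1.07 CPM in DRG, and Icam1, the integrin ligand ICAM-1, had 47.7, 34.5 and 18.4 CPM in paw skin, against 4.12, 3.37 and 4.14 CPM in DRG. Vcam1 did not pass, with 3.02, 6.73 and 8.55 CPM in paw skin, against 9.33, 9.43 and 16.2 CPM in DRG (log2 fold change -0.94 ± 0.41, adjusted p = 0.0769), although the 2 tissues did not overlap; with the replicate number as a block it was lower in paw skin (adjusted p = 0.0183), as it was without paw library 3 (0.0482). Of 18 genes of endothelium in general, 8 were higher in paw skin and 2 in DRG, with a median log2 fold change of 0.43. The share higher in paw skin, 44.4%, was near the 37.1% over all genes tested. Pecam1, an adhesion molecule of all vessels, had 88.9, 168 and 122 CPM in paw skin, against 30.6, 28.9 and 31 CPM in DRG.

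Inflammatory targets varied between paw libraries. Among the chemokine genes, Ccl2, Ccl7, Cxcl2, Cxcl5 and Cx3cl1 were higher in paw skin, and Ccl2, which attracts monocytes, had 11.8, 20.9 and 8.82 CPM in paw skin, against 2.51, 3.58 and 2.84 CPM in DRG. Il1a, an interleukin stored in keratinocytes, had 37.2, 22.1 and 21.5 CPM in paw skin, against 0.0914, 0 and 0.158 CPM in DRG. Il1b, its secreted relative, had 7.44, 22.4 and 0.586 CPM in paw skin, against 0.366, 0.496 and 0.284 CPM in DRG, and Cxcl1, a neutrophil chemokine, had 12.1, 14.9 and 2.38 CPM in paw skin, against 0.183, 0.0354 and 0.0632 CPM in DRG. Ptgs2, the inducible cyclooxygenase, had 6.68, 21.9 and 4.1 CPM in paw skin, against 0.366, 0.142 and 0.19 CPM in DRG, and Saa3, an acute phase protein gene, had 14.4, 16.6 and 6.95 CPM in paw skin, against 0.183, 0.0354 and 0.0316 CPM in DRG. The call of Il1b was lost with limma (adjusted p = 0.178), without both libraries numbered 1 (0.124) and without any one library other than paw libraries 2 and 3 (0.0561 to 0.069), and that of Cxcl2 without both libraries numbered 1 (0.0764). Paw library 3 was the lowest paw library in Il1a, Il1b, Cxcl1, Ptgs2 and Saa3, and it was also the lowest in stress keratinocyte genes, at 2430 CPM against 8140 and 7630 CPM; the part of those cells in the result was not tested. Ptges, the prostaglandin E synthase gene, had 89.1, 63.7 and 42 CPM in paw skin, against 17.5, 16.3 and 16.2 CPM in DRG. The 4 targets higher in DRG were Il7, at 1.65, 2.61 and 2.07 CPM in paw skin, against 5.62, 5.88 and 5.62 CPM in DRG, the colony-stimulating factor receptor ligand gene Il34, at 23.7, 27.9 and 44 CPM in paw skin, against 54.4, 67.1 and 63.3 CPM in DRG, and the interferon-induced chemokine genes Cxcl9, at 0.362, 0.367 and 0.312 CPM in paw skin, against 2.83, 0.496 and 3.41 CPM in DRG, and Cxcl10, at 0.241, 1.35 and 0.82 CPM in paw skin, against 7.27, 2.69 and 3.7 CPM in DRG. The call of Cxcl9 was lost with limma (adjusted p = 0.214) and without both libraries numbered 1 (0.0538).

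**Figure D4:**
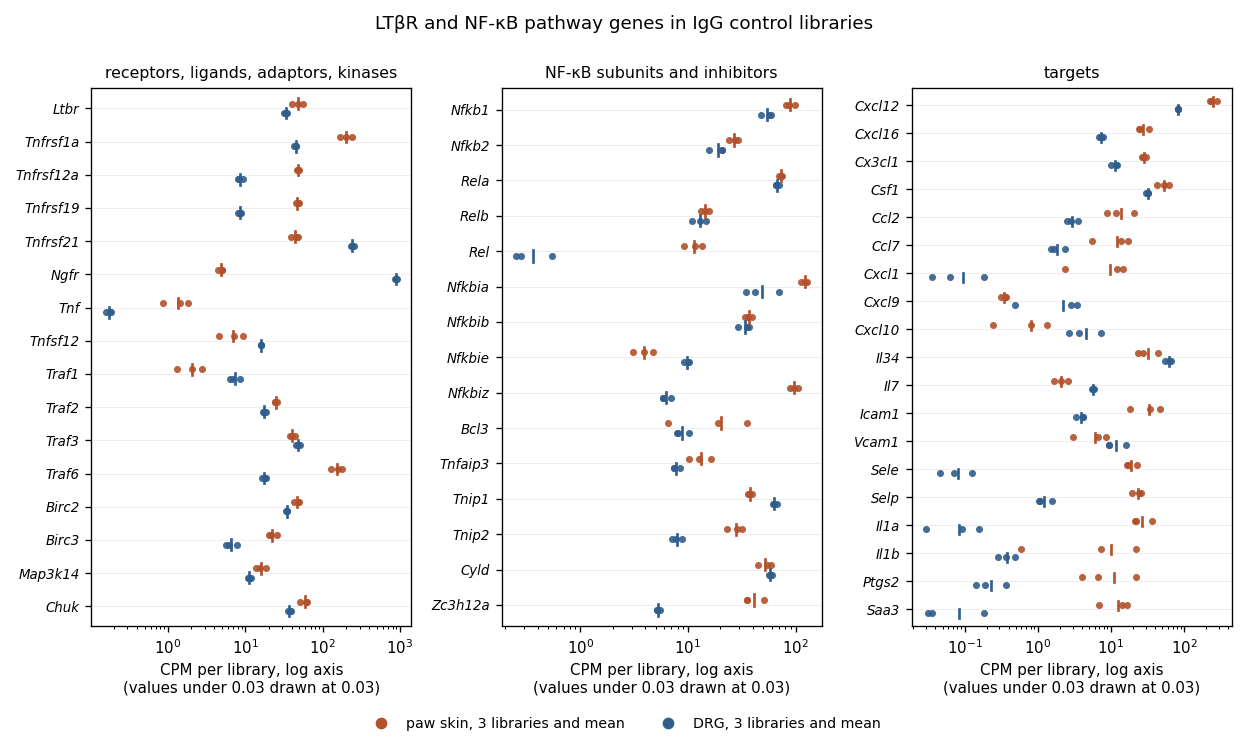
CPM (log axis) of LTβR and NF-κB pathway genes in the 3 paw skin and 3 DRG IgG libraries, with a bar at each mean and values under 0.03 CPM drawn at 0.03. Ltbr, Relb, Rela and Map3k14 lie close together in both tissues, whereas Rel, Nfkbiz, Traf6, Sele and Il1a are far higher in paw skin and Ngfr is far higher in DRG.

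Ligands that sustain and guide neurons, and their receptors, were divided between the tissues. Of 12 ligand genes, 10 were tested, and 7 (70%) were higher in paw skin, against 37.1% of all genes tested, and 2 in DRG. Of 11 receptor genes 10 were tested, and 9 (90%) were higher in DRG, against 39.9% of all genes tested, and 1 in paw skin. Ntf3, which encodes neurotrophin-3, had 2.74, 4.12 and 2.23 CPM in paw skin, against 0.777, 0.886 and 0.474 CPM in DRG, a log2 fold change of 2.09 ± 0.36 (adjusted p = 0.00154). Its receptor gene Ntrk3 had 1.85, 4.77 and 3.79 CPM in paw skin, against 41.6, 43 and 35.1 CPM in DRG.

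The family of glial cell line-derived neurotrophic factor was divided in the same direction. Gdnf had 2.7, 5.06 and 1.95 CPM in paw skin, against 0.274, 0.319 and 0.663 CPM in DRG. Nrtn, the gene of neurturin, had 7.77, 10.9 and 24.7 CPM in paw skin, against 0.732, 0.39 and 0.632 CPM in DRG, and Artn, the gene of artemin, had 3.34, 2.16 and 0.859 CPM in paw skin, against 0.137, 0.213 and 0.19 CPM in DRG. The tissues did not overlap for any of the 3 ligands, as for 38.7% of all genes toward paw skin. Ret, the shared receptor kinase gene, had 20.2, 21.9 and 17 CPM in paw skin, against 861, 771 and 767 CPM in DRG. The co-receptor genes Gfra1, Gfra2 and Gfra3, which pick out the 3 ligands in that order, were higher in DRG with log2 fold changes of -4.31 ± 0.31, -5.37 ± 0.12 and -4.56 ± 0.23. Sema3a, an axon repellent gene, had 11.7, 13 and 8.55 CPM in paw skin, against 0.183, 0.177 and 0.316 CPM in DRG, and Ntf5, the gene of a further neurotrophin, had 2.09, 3.71 and 3.59 CPM in paw skin, against 0, 0.177 and 0.474 CPM in DRG.

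The exceptions were Bdnf and Nrg1 among the ligands and Sort1 among the receptors. Bdnf, the brain-derived neurotrophic factor gene, had 10.7, 6.89 and 10.8 CPM in paw skin, against 38.5, 37.6 and 28.9 CPM in DRG. Nrg1, the axonal signal to Schwann cells, had 3.3, 2.73 and 0.586 CPM in paw skin, against 36.3, 33 and 31 CPM in DRG. Sort1, a sorting receptor that also binds neurotrophin precursors, had 249, 189.8 and 234 CPM in paw skin, against 119, 129 and 119 CPM in DRG (log2 fold change 0.87 ± 0.12, adjusted p = 0.000475). Vegfa did not pass, with 67.8, 80.2 and 79.6 CPM in paw skin, against 81, 76.6 and 78.8 CPM in DRG.

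Sensory channels were mostly higher in DRG, 18 of 22 tested (81.8%), against 39.9% of all genes tested, and 4 were higher in paw skin. Trpv1, the capsaicin and heat receptor, had 0.161, 0.122 and 0.195 CPM in paw skin, against 147, 118 and 168 CPM in DRG, and P2rx3, an ATP-gated channel of nociceptors, had 4.18, 3.87 and 3.75 CPM in paw skin, against 403, 373 and 358 CPM in DRG. Trpv3, a warmth channel of keratinocytes, was higher in paw skin, with 32.2, 19.8 and 19 CPM in paw skin, against 0.32, 0.248 and 0.19 CPM in DRG, 94-fold. The pressure channel genes listed under their older symbols split. Fam38a, now Piezo1, had 124, 125 and 99.5 CPM in paw skin, against 16.3, 15.1 and 12.5 CPM in DRG, whereas Fam38b, now Piezo2 and chosen after its values were seen, had 2.62, 5.26 and 5.5 CPM in paw skin, against 321, 300.2 and 283 CPM in DRG.

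**Figure D5:**
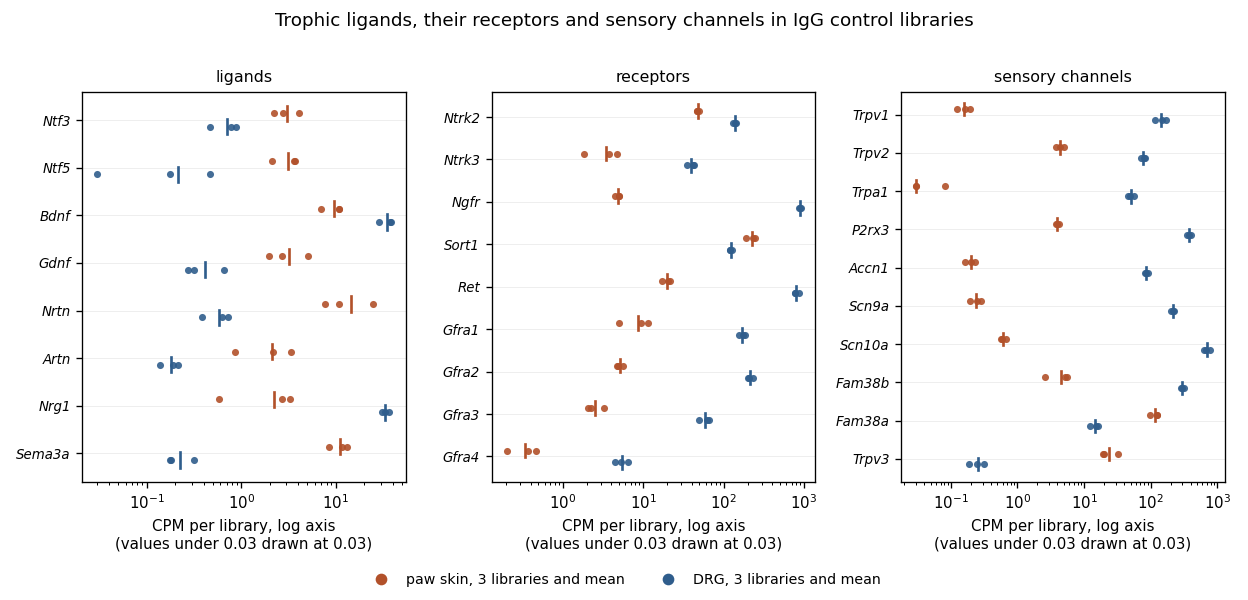
CPM (log axis) of trophic ligands, their receptors and sensory channels in the 3 paw skin and 3 DRG IgG libraries, with a bar at each mean and values under 0.03 CPM drawn at 0.03. Ntf3, Ntf5, Gdnf, Nrtn, Artn and Sema3a are higher in paw skin, and each receptor gene shown except Sort1 is higher in DRG.

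Receptors for cytokines, chemokines and prostaglandins were found on both sides. Of 38 genes, 36 were tested, with a median log2 fold change of 0.64. Of these, 19 (52.8%) were higher in paw skin, against 37.1% of all genes tested, 11 were higher in DRG and 6 did not pass. Interleukin-1 and interleukin-17 receptor genes belonged to the paw side. Il1r1 had 80.1, 72.3 and 53.3 CPM in paw skin, against 13.4, 13 and 11.6 CPM in DRG, and Il17rc had 124, 97.8 and 106 CPM in paw skin, against 10.3, 8.86 and 11.8 CPM in DRG. Il20rb and Il22ra1 encode receptor chains of epithelium. Il20rb had 181, 131 and 163 CPM in paw skin, against 1.19, 1.38 and 1.74 CPM in DRG, and Il22ra1 had 38.1, 28.1 and 36.6 CPM in paw skin, against 0, 0.177 and 0.0632 CPM in DRG. The Toll-like receptor gene Tlr4 had 16.9, 23 and 17.6 CPM in paw skin, against 4.12, 3.65 and 3.6 CPM in DRG. Also higher in paw skin were Il1rap, Il1rl1, Il4ra, Il10ra, Il17ra, Csf1r, Csf2rb, Ccr1, Ccr2 and Tlr2; with the replicate number as a block, Ccr2 (adjusted p = 0.082) and Il10ra (0.0586) were not called. Without any one of 5 libraries Ccr2 was not called (0.0872 to 0.128), nor was Il10ra without any one DRG library (0.0607 to 0.0918), nor Il4ra without paw library 2 or any one DRG library (0.0554 to 0.101).

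Called higher in DRG were 11 receptor genes of this list. Lifr, the leukaemia inhibitory factor receptor, had 37.5, 58.4 and 69.1 CPM in paw skin, against 550.3, 478 and 487 CPM in DRG, and Il31ra, an itch cytokine receptor, had 1.09, 0.734 and 0.429 CPM in paw skin, against 16.2, 16.9 and 13.6 CPM in DRG. Il6st, the shared signalling chain of that family, had 282, 377 and 304 CPM in paw skin, against 277, 267 and 221 CPM in DRG, and Osmr, the partner chain of Il31ra, had 80.0, 69.8 and 43.9 CPM in paw skin, against 53.2, 49.8 and 47.8 CPM in DRG; neither passed (adjusted p = 0.0775 and 0.161), but Il6st was higher in paw skin without paw library 1 (0.0193) and Osmr without paw library 3 (0.00324). Il6ra, the interleukin-6 binding chain, was higher in paw skin, with 75.1, 61.6 and 84 CPM in paw skin, against 5.99, 11.2 and 14.1 CPM in DRG. Ifngr1 was higher in paw skin, with 89.2, 78 and 58.7 CPM in paw skin, against 45.1, 46.8 and 51.9 CPM in DRG, and Ifngr2, the second chain of the same interferon-gamma receptor, was higher in DRG, with 28.9, 29 and 30.9 CPM in paw skin, against 61.3, 59.5 and 62.4 CPM in DRG. Among the prostaglandin E receptor genes, Ptger1 had 0.724, 1.22 and 1.72 CPM in paw skin, against 22.7, 19.5 and 19.6 CPM in DRG, Ptger4 had 5.51, 4.36 and 7.3 CPM in paw skin, against 11.8, 12.5 and 12 CPM in DRG, and Ptger3 did not pass, with 4.51, 4.77 and 6.48 CPM in paw skin, against 3.66, 4.25 and 2.97 CPM in DRG (adjusted p = 0.0693, and 0.0345 without paw library 1). Of the chemokine receptor genes, Cxcr4 was higher in DRG, with 1.41, 3.67 and 3.55 CPM in paw skin, against 13, 13.6 and 16.8 CPM in DRG. Cxcr7, its relative that also binds the product of Cxcl12, was higher in paw skin, with 89, 91.8 and 67.1 CPM in paw skin, against 11.9, 14.6 and 15.4 CPM in DRG. Ifnar1, Ifnar2, Csf2ra and Ptger2 were higher in DRG too.

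Among genes whose mean in the higher tissue reached 50 CPM, the 12 with the largest log2 fold change toward paw skin were Gsdmc, Lce3c, Krt16, Krt6a, Il1f6, Krt6b, Sdr16c5, Lipm, Fam83b, Rptn, Dsg3 and Atp6v1b1. The 12 toward DRG were Vstm2l, Tmem151b, Trpa1, Ppef1, Htr3a, Rph3a, St8sia3, Adcyap1, Ctnna2, Snap25, Calca and Mapk10. Rptn, which encodes repetin of the cornified envelope, had 1483, 676 and 566 CPM in paw skin, against 0.411, 0.39 and 0.316 CPM in DRG, and Htr3a, a serotonin-gated channel gene, had 0.241, 0.0816 and 0.039 CPM in paw skin, against 171, 133 and 195 CPM in DRG. Some genes were read in 1 tissue alone. By the rule of at least 1 CPM in every library of one tissue and at most 2 counts in every library of the other, 163 genes were listed in paw skin and 253 in DRG. In all 6 libraries, 11999 genes reached 1 CPM. The 5 highest listed in paw skin were Atp6v1b1 and Il1f6, given above, Tmprss4, a membrane protease gene, at 126, 76.1 and 52.6 CPM, Gsdmc, a gasdermin gene, at 176, 89.8 and 77.7 CPM, and Trex2, a DNase gene of keratinocytes, at 121, 88.6 and 76.7 CPM. The 5 highest listed in DRG were Trpa1, given above, AI593442, at 101, 97.1 and 100.3 CPM, Vstm2l, at 57.6, 49.1 and 59.4 CPM, Myt1l, a neuronal transcription factor gene, at 64.2, 57.7 and 59.5 CPM, and Hs3st2, a heparan sulphate enzyme gene, at 52.6, 46.2 and 49.3 CPM. With 0 counts required in the other tissue, 38 genes were listed in paw skin and 73 in DRG, so the other genes listed had 1 or 2 counts in a library of the other tissue.

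Libraries of paw skin varied more among themselves than libraries of DRG. The common biological coefficient of variation, the spread between libraries beyond counting error, was 0.324 over 13715 genes in paw skin and 0.159 over 14021 genes in DRG. The genes with the largest spread in paw skin, Myh4, Ckmt2, Tcap, Tnni1 and Sbk2, were all lowest in paw library 1, and Ckmt2, a muscle creatine kinase gene, had 0.282, 74.3 and 91.6 CPM there and in libraries 2 and 3. In DRG they were Myh4, Mir5109, Atp2a1, Ckm and Mybpc2. Mir5109 was the exception among them, at 226, 0.425 and 0.284 CPM, high in DRG library 1 only, the library with the most reads outside genes.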

How the data were processed

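RNA was sequenced from 3 paw skin and 3 DRG libraries of IgG control mice. The authors deposited 1 table of raw counts per gene and library; bcl2fastq, TopHat2, HTSeq and build mm9 are named per the submitters' processing notes, while versions, annotation and strand setting are not given in the sources used here. Without the strand setting, reads of overlapping and antisense genes cannot be told apart. The 5 HTSeq summary lines were removed, and they include reads that fell in no gene, at several positions or in overlapping genes. Counts were scaled by TMM and tested with edgeR 4.0.16 (quasi-likelihood F test, robust fit, filterByExpr filter) in R 4.3.3. Differences beyond 2-fold were tested with glmTreat, with Benjamini-Hochberg adjustment over all genes tested in both tests. The code was tried on simulated data in which few genes differed. That trial does not show how the scaling behaves when most genes differ, as they do here. DESeq2 1.42.0 and limma 3.58.1 (voom) were alternatives, beside other scalings and filters, a fit with the replicate number as a block, all 18 paw and DRG libraries in 1 fit, and leaving out each library. Ratios for genes with 1 to 3 counts in one tissue have exact 95% intervals for counting error, and 0 counts were replaced by a floor of 3 counts per library.

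Genes were named by rule: all members of the lists of receptors, ligands and the NF-κB pathway, the 4 smallest p-values of each other list with up to 2 of the lesser direction, the 12 largest fold changes per direction, the 5 with the largest spread per tissue, and the 5 highest of those listed in 1 tissue. Some genes that the rule names are not reported here. The members and lists were chosen with earlier results of these data known. Deviations from the group means of paw and DRG libraries with the same number correlated across genes with r of 0.531, 0.334 and 0.343, and the labels do not say what a number shares; paw library 2 with DRG library 3 gave 0.392. The criterion of r over 0.1 was met in every pair of the same number. It cannot identify pairs, because libraries 2 and 3 correlated as much across numbers (0.392 and 0.321). The main test used no pairing, as the labels do not state it, and the replicate number as a block was an alternative. Promoter sequences are those of RefSeq, build GRCm38.p6.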

Additional observations from a re-analysis of the deposited data

Results flagged for a closer look

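The difference between paw skin and DRG was also compared between the agonist libraries and the IgG libraries, as an interaction in the same edgeR test. On day 1, 0 of 16461 genes passed (1594 at an unadjusted p under 0.05), and on day 6, 82 passed (1273 at an unadjusted p under 0.05). The test uses the IgG libraries described here, so it is not independent of them, and the labels give 3 libraries per group. The day 6 mice were injected repeatedly, whereas the IgG tissue was taken 24 h after injection. The day 6 interaction therefore cannot separate the agonist from the day or the number of injections, and their parts were not tested. Among the genes named in the report, 8 passed on day 6.

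The log2 fold change, paw over DRG, of Ccr2 was 3.15 on day 6 against 0.69 in IgG libraries, a fitted difference of 2.42 (adjusted p = 0.0171). That of Folr2 was 4.96 on day 6 against 2.80 in IgG libraries, a difference of 2.12 (adjusted p = 0.042), and that of Csf1r was 1.94 against 0.78, a difference of 1.11 (adjusted p = 0.0243). For H2-Ab1 it was 1.30 on day 6 against 0.28, a difference of 0.978 (adjusted p = 0.0128), and for H2-DMa it was -1.38 against -2.76, a difference of 1.33 (adjusted p = 0.00765). Nfkbie had 0.12 on day 6 against -1.33 in IgG libraries, a difference of 1.41 (adjusted p = 0.0226). The receptor genes Ngfr and Gfra2 were less far apart on day 6. Ngfr had -6.20 against -7.52, a difference of 1.29 (adjusted p = 0.00842), and Gfra2 had -3.95 against -5.37, a difference of 1.37 (adjusted p = 0.0294).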

How the results depend on the processing

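Each count of called genes stayed within 1.5 times its reported value under every alternative run. The total ranged from 11241 to 13414, and the count beyond 2-fold from 6097 with DESeq2 to 7574 with all 18 libraries in the fit. Leaving out 1 library gave 11241 to 12879 calls and 6523 to 7185 beyond 2-fold. The replicate block gave 11800 calls, 5711 higher in paw skin and 6089 in DRG, and 6838 beyond 2-fold; 11591 calls were shared with the fit without it, 521 were lost and 209 gained. Besides the genes given with a blocked value, it changed the calls of the muscle genes Atp2a1, Ckm, Ckmt2, Mybpc2 and Tcap, which passed with it, and of no other named gene. Genes listed in 1 tissue numbered 168 to 213 in paw skin and 261 to 309 in DRG when 1 library was left out, and 38 and 73 when 0 counts were required in the other tissue. Without both libraries numbered 1, an alternative chosen after seeing the data, they numbered 199 and 292; scaling by RLE for the 2-fold count was also chosen then and gave 6899. Of 239 named genes tested, 203 kept their direction and side of the threshold under every alternative. Beyond the left-out single libraries and the block, calls were lost with limma for Ccr2, Cxcl9, Erbb3, Il1b, Mpo, Sbk2, Tnfrsf1b, Tnfsf9, Tnni1 and Tnnt1, with DESeq2 for Tnfsf9 and Traf3, and with all 18 libraries for Traf3. Other scalings or no filter ended those of Ccr2, H2-Ab1, Itga3, Sbk2, Tnfrsf1b, Tnni1 and Traf3. Leaving out both libraries numbered 1 ended those of Ccr2, Cxcl2, Cxcl9, Erbb3, H2-Ab1, Il1b, Tnfrsf1b, Tnfsf9 and Traf3. Calls were gained for Il6st and Ptger3 with upper-quartile scaling and with limma. With DESeq2, and with all 18 libraries, they were gained for Bcl3, Il6st, Ptger3 and Vcam1. Without both libraries numbered 1 they were gained for Atp2a1, Ckm, Ckmt2, Il6st, Mybpc2, Pvalb, Tcap and Vcam1. The genes that turned direction under an alternative were not called in the main test. Vegfa had 0.01182 with upper-quartile scaling and 0.03417 without both libraries numbered 1. Nfkbil1 had 0.03043 with upper-quartile scaling, 0.0789 with limma and 0.08791 without both libraries numbered 1. Mir5109 had 1.692 without both libraries numbered 1, where the edgeR test called it higher in paw skin (adjusted p = 0.0105). With all 18 libraries in the edgeR fit it was called higher in DRG instead (-6.37, adjusted p = 0.0091). Without 1 library, Vegfa lay between -0.08798 and 0.03718, Nfkbil1 between -0.1701 and 0.1447, and Mir5109 between -6.971 and 1.331, the last without DRG library 1. The causes were not tested. Counts of a few reads per library limit the lowest levels, and intervals and floors cover counting error only.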

Other observations

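Some genes that lie next to each other in the RefSeq gene order were higher in the same tissue. With 15616 genes placed, 28 runs of at least 5 neighbouring tested genes were all called beyond 2-fold in paw skin and 39 in DRG; whether runs of this length exceed those of a shuffled order was not tested. The longest, 36 genes on chromosome 3 from Sprr2g to S100a11, holds the cornified envelope genes and had a median log2 fold change of 10.16. On chromosome 15 a run of 14 keratin genes from Krt84 to Krt18 had a median of 10.46, and on chromosome 7 a run of 10 kallikrein genes from Klk14 to Klk5 had a median of 8.23. Genes of these families have close copies that can share reads.

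Runs higher in DRG included 8 genes from Hoxb9 to Hoxb2 on chromosome 11, with a median log2 fold change of -2.81. A run of 7 genes on chromosome 7 from D7Ertd715e to Magel2, in the imprinted region of Snrpn, had a median of -7.42. Magel2 had 0, 0 and 0 CPM in paw skin, against 1.42, 0.921 and 1.99 CPM in DRG. Lists not described above were small. Of 6 tested genes of lymphatic endothelium, 4 (66.7%) were higher in paw skin, against 37.1% of all genes tested, and 1 in DRG. Of 9 tested genes of central glia, 5 (55.6%) were higher in DRG, against 39.9% of all genes tested, and 1 in paw skin.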
